A study of Mus musculus with 6 samples.

Results

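The genes described are 10 genes of the CCN family and of the Hippo pathway, out of 43346 genes in the count table, chosen by name: Ccn1, Ccn2, Ankrd1, Amotl2, Ajuba, Yap1, Wwtr1, Lats1, Lats2 and Tead1. All 10 were found by their Ensembl identifiers, and all 10 passed the filter on low counts. They were measured in primary mouse embryonic fibroblasts (MEFs), fibroblasts grown from embryos, of the C57BL/6 strain at passage 9. The cells received 3 µM erastin, an inhibitor of the cystine/glutamate antiporter used to induce ferroptosis, or the solvent DMSO, and RNA was taken after 24 h. Each group had 3 libraries. Both groups were grown in medium with 10% fetal bovine serum and, as the labels give it, 55 mM 2-mercaptoethanol, a reducing thiol. The labels do not say how many embryos the cells came from or whether the 3 libraries of a group came from separate cultures, so p-values measure the spread between these libraries, which may be technical.

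The Hippo pathway is a kinase cascade that restrains growth in response to cell contact, cell shape and matrix stiffness. Its kinases LATS1 and LATS2 phosphorylate the co-activators YAP (gene Yap1) and TAZ (gene Wwtr1), which then leave the nucleus; unphosphorylated YAP and TAZ bind TEAD transcription factors, which bind DNA through the motif GGAATG, and switch on targets such as Ccn1, Ccn2, Ankrd1 and Amotl2. Much of this control acts on proteins, whose phosphorylation and location are not measured by RNA counts. CCN1 and CCN2 are secreted matricellular proteins that bind integrins and are strongly expressed in fibroblasts.

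Promoter windows were available for 8 of the 10 genes, 10 windows in all, from RefSeq on GRCm38.p6, each running from 250 bases before to 50 bases after a start site. Ccn2 and Tead1 had no entry. The motif GGAATG, searched on both strands, lay in the windows of 7 of the 8 genes (8 of 10 windows), against 14.7% of all 32851 windows. The genes are named in part for their known link to TEAD, so this share is a description. The windows of Ccn1, Ankrd1, Amotl2 and Ajuba, chosen as the targets described first, are printed 5′ to 3′ on the strand of the gene with the matches in capitals (GGAATG, or CATTCC where the match is on the other strand). Among them are windows of genes that rose and that of Ajuba, which fell. Any part of the motif in these changes was not tested.
Ccn1: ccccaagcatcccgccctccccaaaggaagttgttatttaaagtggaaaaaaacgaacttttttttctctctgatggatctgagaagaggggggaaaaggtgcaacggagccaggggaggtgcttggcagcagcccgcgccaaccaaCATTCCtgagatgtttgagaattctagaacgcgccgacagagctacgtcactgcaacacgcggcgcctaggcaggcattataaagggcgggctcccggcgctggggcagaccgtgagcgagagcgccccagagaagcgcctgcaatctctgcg
Ankrd1: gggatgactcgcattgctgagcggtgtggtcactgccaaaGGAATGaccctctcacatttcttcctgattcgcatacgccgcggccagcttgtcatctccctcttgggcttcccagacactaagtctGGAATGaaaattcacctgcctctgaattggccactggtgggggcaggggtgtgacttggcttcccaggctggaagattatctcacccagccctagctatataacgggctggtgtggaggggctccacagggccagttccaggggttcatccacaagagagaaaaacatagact
Amotl2: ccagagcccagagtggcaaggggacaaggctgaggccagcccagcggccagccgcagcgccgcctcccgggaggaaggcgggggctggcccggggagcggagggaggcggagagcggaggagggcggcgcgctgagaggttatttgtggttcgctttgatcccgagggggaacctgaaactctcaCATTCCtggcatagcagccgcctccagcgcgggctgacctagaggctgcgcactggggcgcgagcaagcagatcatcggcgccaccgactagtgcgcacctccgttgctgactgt
Ajuba: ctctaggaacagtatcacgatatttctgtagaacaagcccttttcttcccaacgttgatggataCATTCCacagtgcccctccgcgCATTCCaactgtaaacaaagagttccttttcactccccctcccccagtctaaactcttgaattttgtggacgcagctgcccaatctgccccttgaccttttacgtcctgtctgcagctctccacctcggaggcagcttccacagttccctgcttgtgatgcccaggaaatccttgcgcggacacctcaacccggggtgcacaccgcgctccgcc
The windows are chr3:145649936-145650235 (minus strand), chr19:36119795-36120094 (minus), chr9:102717554-102717853 (plus) and chr14:54577612-54577911 (minus), in the order printed.

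**Figure D1:**
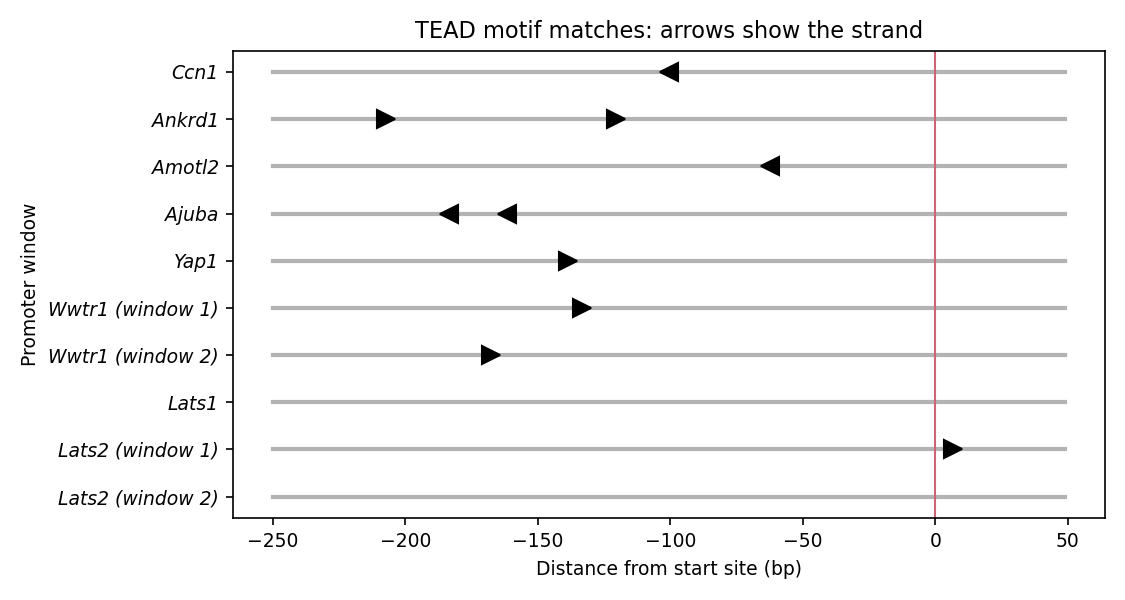
Position of each GGAATG match (arrow, pointing right on the strand of the gene and left on the opposite strand) in the 10 promoter windows, by distance in base pairs from the RefSeq start site, marked by the vertical line. Ankrd1 and Ajuba have 2 matches each, and Lats1 and the second window of Lats2 have 0.

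Counted from the start site, the match in the Ccn1 window ran from -103 to -98 and that in the Amotl2 window from -65 to -60. Ankrd1 had matches from -210 to -205 and from -123 to -118, and Ajuba from -186 to -181 and from -164 to -159. At least 2 matches were found in 1.36% of all windows. The Yap1 and Wwtr1 windows held the motif as well; the 2 windows of Wwtr1 overlap and share their match. Other motifs were searched in the same way. The AP-1 motif TGANTCA (7.81% of all windows), the cAMP response element TGACGTCA (1.79%), the ATF4 motif TGATGNAAN (3.95%) and the CArG box of serum response factor (1.63%) were in 0 of the 10 windows, and the antioxidant response element TGACNNNGC (12.4%) was in those of Ccn1 (-62 to -54) and Ankrd1 (-72 to -64), apart from the GGAATG matches. A match is a description of these letters and not a measured binding site.

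Erastin changed these genes in different directions. The targets Ccn2 and Ankrd1 rose more than 2-fold, Ccn1 and Amotl2 rose by less, and Ajuba fell to under 0.5 of its DMSO level, while Yap1 and Tead1 stood slightly lower. By edgeR's quasi-likelihood test over 14000 genes, with adjusted p-values under 0.05 called, 5 of the 10 rose (Ccn1, Ccn2, Ankrd1, Amotl2 and Lats2) and 3 fell (Ajuba, Yap1 and Tead1). Of all genes tested 43.1% passed, 21.6% higher and 21.5% lower. In 9 of the 10 genes the erastin libraries did not overlap the DMSO libraries, 5 higher and 4 lower, against 52.5% of all genes (26.7% higher and 25.8% lower). The median log2 fold change of the 10 was 0.12, and that of all genes -0.0014. Calls with a log2 fold change of 1 or more in either direction numbered 3 of the 10 (Ccn2, Ankrd1 and Ajuba), against 12.2% of all genes. When libraries were scaled by total count alone, Ajuba was the 1 gene still called lower. In mean CPM the 10 genes were not typical of all genes tested. Ajuba stood at percentile 64.9 and the others at percentile 88.6 (Lats1) to 99.7 (Ccn2). Apart from Ccn2, Ankrd1 and Ajuba, their absolute log2 fold changes were below the median of all genes. The part of mean level in the shares of calls and of groups without overlap was not tested. The 10 genes were also chosen with earlier results of these data known, so the comparisons with all genes are a description.

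Total counts were 13333911 to 18505571 in the DMSO and 16800789 to 20509970 in the erastin libraries, and 3 counts were worth 0.140 to 0.234 CPM, read counts scaled to a common library size. DMSO replicate 3 stood apart from the other DMSO libraries on the second principal component, which held 14.5% of the variance. Of 9 fibroblast markers 8 fell and 0 rose, and their summed level was 28531 to 29719 CPM in DMSO and 16762 to 18724 CPM in erastin libraries. Summed endothelial markers (4 genes) stood at 4.66 to 7.10 and 13.2 to 16.4 CPM, with Kdr and Tek higher, and their defining genes Pecam1 and Cdh5 under 0.4 CPM on average in both groups. Epithelial markers (6 genes) summed to at most 3.25 CPM and blood and macrophage markers (4 genes) to at most 16.9 CPM. The 7 striated muscle markers summed to 55.1 to 63.3 and 18.1 to 23.1 CPM, nearly all from Acta1, an actin gene that fell. The part of these markers in the results on the 10 genes was not tested. In such bulk samples, fewer cells of a type and less RNA per cell cannot be told apart.

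**Figure D2:**
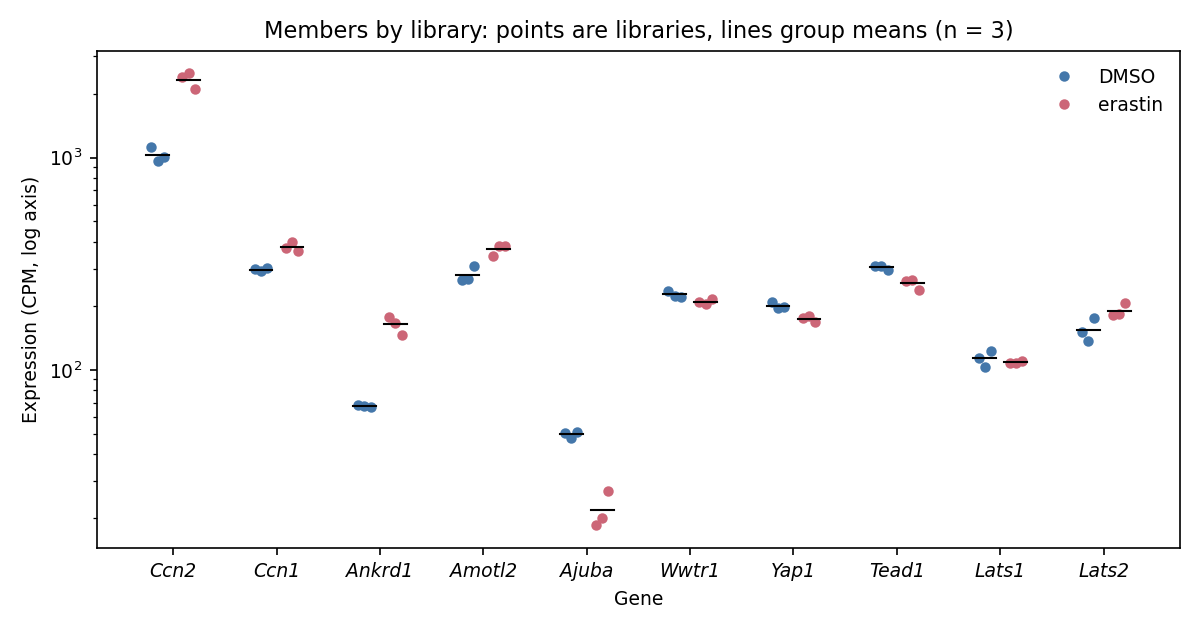
Expression of the 10 genes in CPM (log axis) in every library; points are libraries, blue for DMSO and red for erastin, and lines are group means (n = 3). The groups are apart in every gene but Lats1, with the widest gaps in Ccn2, Ankrd1 and Ajuba.

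Ccn2 (ENSMUSG00000019997.7; mm10 chromosome 10, 24595442 to 24598683, plus strand), which encodes a secreted protein also known as connective tissue growth factor, was the most abundant of the 10 genes. It stood at 1124, 967 and 1007 CPM in the DMSO libraries (replicates 1, 2 and 3, an order kept for all genes) and at 2389, 2494.5 and 2108 CPM in the erastin libraries. The lowest erastin library was far above the highest DMSO library. The fitted rise was 2.26-fold (log2 fold change 1.17, SE 0.08, 95% interval 1.01 to 1.34, edgeR adjusted p = 3.66e-08). By mean CPM it ranked 44 of the 14000 genes. Its exons overlap those of the antisense transcript Gm15270 over 665 bases, which had 42 reads in the 6 libraries together; how reads in the shared stretch were assigned is not given in the sources used here.

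Ccn1 (ENSMUSG00000028195.3; chromosome 3, 145646976 to 145649981, minus strand), a closely related matricellular gene also known as Cyr61, rose by much less. Its level was 297, 291 and 300.4 CPM in the DMSO and 373, 400.4 and 362 CPM in the erastin libraries. The DMSO libraries agreed within 10 CPM and all lay below the erastin libraries. The rise was 1.28-fold (log2 fold change 0.35, SE 0.07, 95% interval 0.21 to 0.50, edgeR adjusted p = 0.000733). The absolute log2 fold change of Ccn1 exceeded that of 44.3% of all genes, and that of Ccn2 exceeded 88.7%.

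The unequal rise of the 2 genes can be read within each library, where scaling plays no part. The DMSO libraries held 3.79, 3.32 and 3.35 Ccn2 reads for each Ccn1 read, and the erastin libraries held 6.40, 6.23 and 5.82. The ratio was higher in every erastin library than in every DMSO library, by 1.77-fold on average. An exact two-sided permutation test over libraries gave p = 0.1, the smallest that this test allows with 3 against 3 libraries (0.1 also after adjustment over the 3 ratios tested).

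**Figure D3:**
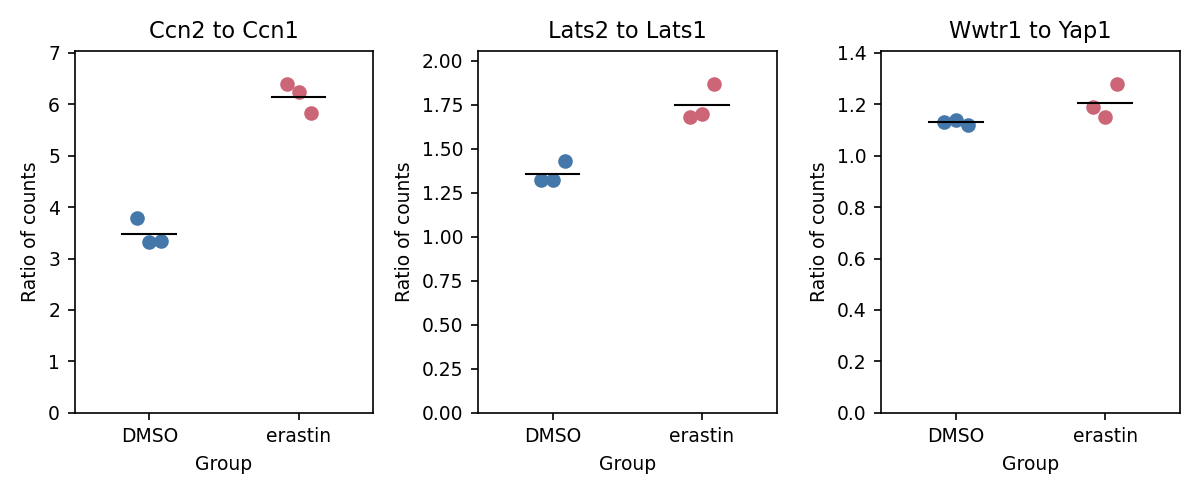
Ratio of read counts of gene pairs in each library (points; lines are group means, n = 3) for Ccn2 to Ccn1, Lats2 to Lats1 and Wwtr1 to Yap1, with axes from 0. The Ccn2 to Ccn1 ratio is 3.32 to 3.79 without erastin and 5.82 to 6.40 with it, and the Wwtr1 to Yap1 ratio lies between 1.12 and 1.28 over all 6 libraries.

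The other CCN genes moved against Ccn1 and Ccn2. All 3 that were expressed fell: Ccn5, which lacks the C-terminal domain of the other family members, from 432 ± 13.5 CPM with DMSO to 186 ± 17.3 with erastin (SD, n = 3; log2 fold change -1.22, edgeR adjusted p = 2.43e-08), Ccn3 from 269 ± 35.5 CPM with DMSO to 127 ± 24.3 with erastin (log2 fold change -1.08, edgeR adjusted p = 5.19e-06), and Ccn4, a target of WNT signalling, from 504 ± 6.30 CPM with DMSO to 362 ± 8.51 with erastin (log2 fold change -0.48, edgeR adjusted p = 2.98e-05). Ccn6 was close to the floor and was not tested. In these 3 genes no erastin library reached a DMSO library. Of all genes tested 21.5% were called lower, and 25.8% had all erastin libraries below the DMSO libraries.

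Ankrd1 (ENSMUSG00000024803.8; chromosome 19, 36111961 to 36120099, minus strand) encodes an ankyrin repeat protein of the nucleus and sarcomere that is abundant in heart muscle and is a standard readout of YAP activity. It was at 68.3, 67.4 and 66.4 CPM in the DMSO and 178, 166.5 and 146 CPM in the erastin libraries. The DMSO libraries were nearly equal and every erastin library was above them by over 2-fold. The rise of 2.43-fold was the largest among the 10 genes (log2 fold change 1.28, SE 0.09, 95% interval 1.09 to 1.47, edgeR adjusted p = 4.22e-08). Among the striated muscle markers, a list without Ankrd1, Acta1 fell. Tnnt2 went from 1.92 to 0.598 CPM on average without passing, and the others were too low to test.

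Amotl2 and Ajuba are both targets and regulators of the pathway. AMOTL2, an angiomotin, binds YAP and holds it in the cytoplasm; AJUBA, a LIM domain protein, binds LATS kinases and restrains them. Amotl2 (ENSMUSG00000032531.11; chromosome 9, 102716672 to 102733418, plus strand) was at 265, 267.5 and 309.9 CPM in the DMSO and 345, 383 and 383 CPM in the erastin libraries, with DMSO replicate 3 nearest to the erastin libraries. It rose 1.32-fold (log2 fold change 0.40, SE 0.08, 95% interval 0.23 to 0.57, edgeR adjusted p = 0.000897). Ajuba (ENSMUSG00000022178.10; chromosome 14, 54567472 to 54577558, minus strand) was at 50.1, 47.7 and 50.8 CPM in the DMSO and 18.5, 20.0 and 26.9 CPM in the erastin libraries. All 3 erastin libraries were below the DMSO libraries, with erastin replicate 3 the highest of them. The fall was 2.27-fold (log2 fold change -1.19, SE 0.13, 95% interval -1.47 to -0.90, edgeR adjusted p = 5.81e-06).

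**Figure D4:**
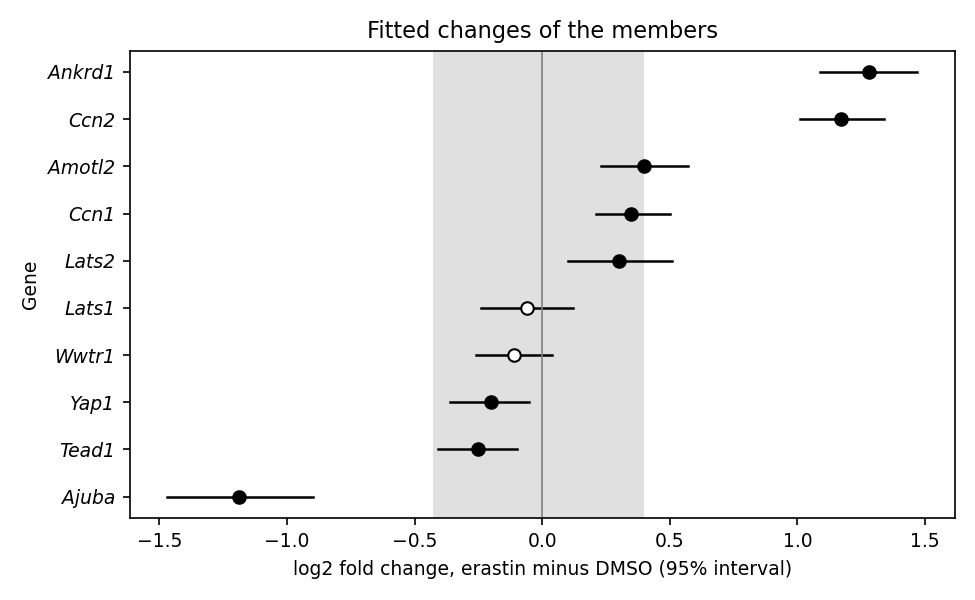
Log2 fold changes (erastin minus DMSO) of the 10 genes with 95% intervals from the edgeR fit; filled points passed at an adjusted p-value under 0.05, and the grey band spans the middle of all genes from the first to the third quartile (-0.425 to 0.396). Ccn2, Ankrd1 and Ajuba lie outside the band, and the other 7 genes have point estimates within it or, for Amotl2, at its edge; Lats1 has no stable direction, at 0.0074 with scaling by total count only.

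Relatives of these 2 genes also moved in both directions. In a list of 7 further angiomotin and Ajuba or zyxin family genes 1 rose and 4 fell, against 43.1% of all genes called in either direction, with a median log2 fold change of -0.42 (-0.16 after an offset for GC content and transcript length). Amotl1 rose from 185.5 ± 10.7 CPM with DMSO to 252 ± 8.86 with erastin (SD, n = 3; log2 fold change 0.44, edgeR adjusted p = 0.000198). The LIM domain genes Lpp (log2 fold change -0.85, edgeR adjusted p = 1.05e-07), Trip6 (-0.80, edgeR adjusted p = 1.22e-05) and Limd1 (-0.48, edgeR adjusted p = 0.000521) fell most. Wtip, the fourth (-0.42, edgeR adjusted p = 0.0142), did not pass without DMSO replicate 2 (edgeR adjusted p = 0.103), nor after that offset (log2 fold change -0.025).

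The co-activator transcripts moved little. Yap1 (ENSMUSG00000053110.9; chromosome 9, 7931999 to 8004596, minus strand) was at 209, 196 and 197 CPM in the DMSO and 175, 179 and 169 CPM in the erastin libraries. The groups did not overlap, and the fall was 1.15-fold (log2 fold change -0.20, SE 0.07, 95% interval -0.36 to -0.05, edgeR adjusted p = 0.0329). This call was not firm. It was lost without DMSO replicate 1 or 2 or without erastin replicate 1, 2 or 3 (edgeR adjusted p = 0.0574 to 0.103), with scaling by total count only (0.168) and without the filter on low counts (0.121).

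Wwtr1 (ENSMUSG00000027803.10; chromosome 3, 57455649 to 57575910, minus strand), the gene of TAZ, was at 236, 222.5 and 221 CPM in the DMSO and 208, 205 and 216 CPM in the erastin libraries. The groups did not overlap, but the gap between them was smaller than the spread within each, and the difference did not pass (log2 fold change -0.11, 95% interval -0.26 to 0.04, edgeR adjusted p = 0.223; 0.0236 after the offset for GC content and length). The interval leaves room for a fall of the size seen in Yap1. The Wwtr1 to Yap1 read ratio was 1.12 to 1.14 with DMSO and 1.15 to 1.28 with erastin (exact permutation p = 0.1, the smallest possible).

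Tead1 (ENSMUSG00000055320.12; chromosome 7, 112679318 to 112906807, plus strand), which encodes a DNA-binding partner of YAP and TAZ, was at 309.8, 307 and 295.5 CPM in the DMSO and 263, 264 and 238 CPM in the erastin libraries. All erastin libraries were lower, by 1.19-fold (log2 fold change -0.25, SE 0.07, 95% interval -0.41 to -0.10, edgeR adjusted p = 0.00998; 0.0598 when scaled by total count only). The other TEAD genes moved in both directions. Tead2 fell from 62.6 ± 4.42 CPM with DMSO to 40.5 ± 3.21 with erastin (SD, n = 3; log2 fold change -0.63, edgeR adjusted p = 0.000134) and Tead3 from 37.4 ± 4.40 CPM with DMSO to 25.5 ± 1.04 with erastin (-0.55, edgeR adjusted p = 0.0018). Tead4, the least counted of the 4, rose from 4.84 ± 0.346 CPM with DMSO to 9.48 ± 0.607 with erastin (log2 fold change 0.97, edgeR adjusted p = 0.00264). Of the VGLL cofactors, which compete with YAP and TAZ for TEAD proteins, Vgll3 rose from 133 ± 7.12 CPM with DMSO to 185.0 ± 14.7 with erastin (0.48, edgeR adjusted p = 0.000274), Vgll4 did not pass, and Vgll1 and Vgll2 were too low to test.

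The 2 kinase genes differed in their values. Lats2 (ENSMUSG00000021959.11; chromosome 14, 57689662 to 57758388, minus strand), itself a YAP target, was at 150.4, 137 and 175 CPM in the DMSO and 181, 183 and 206 CPM in the erastin libraries. The lowest erastin library was only just above DMSO replicate 3. Lats2 rose 1.23-fold (log2 fold change 0.30, SE 0.09, 95% interval 0.10 to 0.51, edgeR adjusted p = 0.0166), a call lost without DMSO replicate 1 or 2 or erastin replicate 3 (edgeR adjusted p = 0.0535, 0.0980 and 0.0662). In GENCODE M21 the same-strand gene Gm49361 shares 42.4% of the exonic bases of Lats2; it was not in the count table, and how such reads were assigned is not given in the sources used here.

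Lats1 (ENSMUSG00000040021.8; chromosome 10, 7681214 to 7716460, plus strand) was at 114, 103.5 and 122 CPM in the DMSO and 108, 108 and 110.1 CPM in the erastin libraries. The erastin libraries lay within the range of the DMSO libraries, and the difference did not pass (log2 fold change -0.06, 95% interval -0.24 to 0.12, edgeR adjusted p = 0.615; 0.0074 on the log2 scale with scaling by total count only). Within libraries there were 1.32, 1.32 and 1.43 Lats2 reads for each Lats1 read in the DMSO and 1.68, 1.70 and 1.87 in the erastin libraries. The groups did not overlap (exact permutation p = 0.1, the smallest possible).

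Of 20 further kinases, scaffolds and upstream regulators of the cascade, 6 rose and 2 fell, a share of calls near the 43.1% of all genes, and the median log2 fold change was 0.08 (-0.052 after the offset for GC content and length). Rassf1, a scaffold that binds the MST kinases, rose from 58.1 ± 2.71 CPM with DMSO to 154.5 ± 12.7 with erastin (SD, n = 3; log2 fold change 1.41, edgeR adjusted p = 1.74e-08). Wwc1, which encodes the upstream regulator KIBRA, rose by 0.97 (edgeR adjusted p = 0.00621) and Stk4, the gene of the kinase MST1, by 0.76 on the log2 scale (edgeR adjusted p = 4.22e-05). Of the 3 large cadherin genes listed, Fat4 fell from 245 ± 15.5 CPM with DMSO to 114 ± 16.1 with erastin (SD, n = 3; log2 fold change -1.11, edgeR adjusted p = 3.89e-07) and Fat1 by 0.30 on the log2 scale (edgeR adjusted p = 0.00202), while Dchs1 did not pass (log2 fold change -0.49, edgeR adjusted p = 0.0513). Unlike Stk4, the core genes Stk3, Sav1, Mob1a and Nf2 did not pass. Mob1b was just over the threshold (log2 fold change 0.26, 95% interval 0.04 to 0.47, edgeR adjusted p = 0.0506). Without DMSO replicate 1 the list had 4 genes lower.

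Known YAP and TAZ targets beyond the 10 genes did not rise together. Of 17 such genes 16 were tested, of which 3 rose and 5 fell, against 21.6% and 21.5% of all genes, with a median log2 fold change of -0.03 (0.034 with scaling by total count only). Ptpn14 is also in the list of kinases, scaffolds and upstream regulators, so it is counted in both. Gadd45a, a stress-induced growth arrest gene, rose from 22.8 ± 4.68 CPM with DMSO to 130.4 ± 7.71 with erastin (SD, n = 3; log2 fold change 2.51, edgeR adjusted p = 1.88e-09). F3, the gene of tissue factor, rose by 0.94 (edgeR adjusted p = 1.17e-07) and Asap1 by 0.25 on the log2 scale (edgeR adjusted p = 0.0229). Asap1 did not pass without DMSO replicate 1 or erastin replicate 1 or 2 (edgeR adjusted p = 0.0641 to 0.106), with upper-quartile factors (0.0664) or after the offset for GC content and length (0.0728).

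Among the 5 that fell, Tgfb2, a TGF-beta ligand, went from 102 ± 5.14 CPM with DMSO to 27.4 ± 7.13 with erastin (SD, n = 3; log2 fold change -1.89, edgeR adjusted p = 9.77e-08). Arhgef17, an exchange factor for RhoA, fell by 0.90 (edgeR adjusted p = 1.27e-06) and Igfbp3, a binding protein of insulin-like growth factors, by 0.79 on the log2 scale (edgeR adjusted p = 1.46e-06). Axl, Myof, Crim1, Dock5, Nuak2 and Ptpn14 had log2 fold changes between -0.10 and 0.11 and did not pass. Fjx1 (log2 fold change 0.24, edgeR adjusted p = 0.0973) did not pass either. Nor did Nt5e (0.56, 95% interval -0.15 to 1.28, edgeR adjusted p = 0.194). In Crim1, Fjx1 and Nt5e all erastin libraries lay above the DMSO libraries. In either direction, groups did not overlap in 11 of the 16 targets tested, against 52.5% of all genes.

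**Figure D5:**
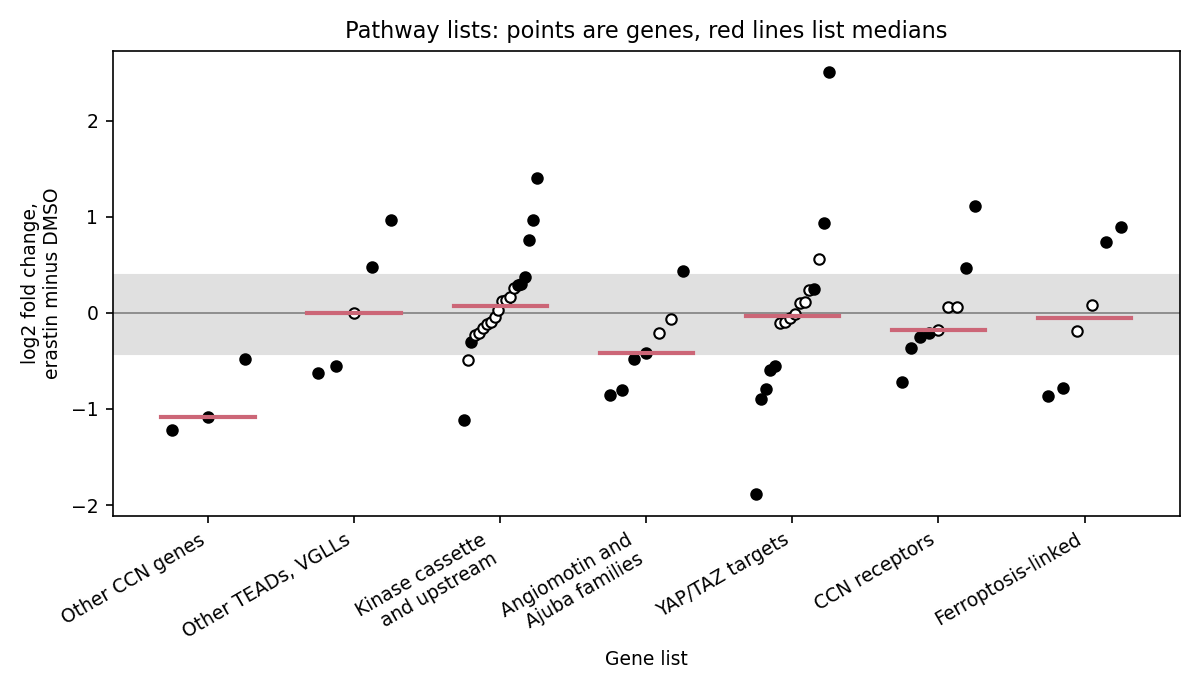
Log2 fold changes (erastin minus DMSO) of the tested genes in 7 pathway lists that leave out the 10 genes; each point is a gene, filled where it passed at an adjusted p-value under 0.05, red lines are list medians, and the grey band runs from the first to the third quartile of all genes. Ptpn14 is drawn in both the kinase and the target list. The 3 other CCN genes are all lower; the medians of the TEAD and VGLL list (0.003) and the target list (-0.03) lie near 0 and change sign with the scaling (-0.051 for the former with upper-quartile factors, 0.034 for the latter when scaled by total count), as does that of the ferroptosis-linked list (-0.05, or 0.011 when scaled by total count).

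On the receiving side, the receptors of CCN1 and CCN2 were also mixed. Of 9 receptor genes 2 rose and 4 fell, against 43.1% of all genes called (median log2 fold change -0.18, or -0.067 without erastin replicate 3 and -0.12 with total counts as library sizes). The integrin subunit gene Itgb3 rose from 35.3 ± 2.70 CPM with DMSO to 76.1 ± 14.2 with erastin (SD, n = 3; log2 fold change 1.11, edgeR adjusted p = 6.36e-06) and Itga6 by 0.47 on the log2 scale (edgeR adjusted p = 0.00226). Itgb5, whose product pairs with the alpha-V integrin as that of Itgb3 does, fell from 443 ± 16.4 CPM with DMSO to 268 ± 27.9 with erastin (SD, n = 3; log2 fold change -0.72, edgeR adjusted p = 4.41e-06). The endocytic receptor gene Lrp1 fell by 0.37 (edgeR adjusted p = 0.00235) and Lrp6 by 0.25 on the log2 scale (edgeR adjusted p = 0.0124; 0.0757 without erastin replicate 1 and 0.0631 when scaled by total count alone). The number of receptor genes lower fell to 2 when erastin replicate 1 was left out, and to 2 when libraries were scaled by total count alone.

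A list of 6 genes that link YAP or TAZ to ferroptosis in other cells had 2 higher and 2 lower, against 43.1% of all genes called. Tfrc, the transferrin receptor that brings in iron, rose by 0.89 on the log2 scale (edgeR adjusted p = 1.85e-06). Acsl4, which activates polyunsaturated fatty acids for later entry into lipids, rose by 0.74 on that scale (edgeR adjusted p = 0.000109). Skp2, a ubiquitin ligase subunit, fell by 0.78 (edgeR adjusted p = 0.00319) and the NADPH oxidase gene Nox4 by 0.87 on the log2 scale (edgeR adjusted p = 0.0107). The Nox4 groups overlapped, at 15.9, 18.8 and 9.03 CPM in the DMSO and 7.36, 7.24 and 9.54 CPM in the erastin libraries. The Nox4 call was lost without DMSO replicate 2 or erastin replicate 1 (edgeR adjusted p = 0.0816 and 0.0511), which left 1 gene lower. Emp1, at 1088 ± 83.3 and 1149 ± 117 CPM (SD, n = 3), and Angptl4 did not pass.

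Levels of the 10 genes were compared per kilobase of the longest transcript, in CPM per kb. In DMSO the order was Ccn2 (415), Ccn1 (147), Amotl2 (63.5), Wwtr1 (48.2), Yap1 (37.9), Ankrd1 (33.4), Tead1 (30.5), Lats2 (29.7), Lats1 (15.7) and Ajuba (14.6), where the libraries of Lats2 overlapped those of Tead1 and Ankrd1, and those of Lats1 overlapped those of Ajuba. In erastin libraries Ankrd1 (81.0 CPM per kb) had moved up beside Amotl2 (83.7), with overlapping libraries, and Lats2 (36.6) stood above Yap1 (33.0). Ccn2 (936) and Ccn1 (188) stayed at the head of the order and Ajuba (6.41) at its end.

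The genes whose log2 CPM profile over the 6 libraries lay nearest to that of Ccn2, by root mean square distance after centring each gene, included Sltm (0.039) and Thbd (0.055), out of 11260 genes compared. Thbd, the gene of thrombomodulin, went from 606 to 1295 CPM on average, and Sltm from 28.1 to 63.3 CPM. Nearest to Ccn1 were Zfp111 (0.019), Usp15 (0.029) and Sbf1 (0.029), with log2 fold changes of 0.35, 0.33 and 0.38; that of Zfp111 did not pass (edgeR adjusted p = 0.0648; 0.0337 with scaling by total count only). The Usp15 call was lost after the offset for GC content and length (log2 fold change 0.17, edgeR adjusted p = 0.136). The distance includes the difference between the groups, so fold changes near those of Ccn2 and Ccn1 follow from the choice. Shared regulation was not tested.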

How the data were processed

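The authors deposited raw counts, whole numbers of reads per gene, for 6 libraries. Per the labels' protocols, these were ribosomal-RNA-depleted Ion Total RNA-seq libraries, made with 16 PCR cycles, selected for 100 to 200 bp and read on an Ion Proton. The submitters' processing notes name HTSeq 0.9.1, SAMtools and mm10; the aligner, annotation and strand setting are not given in the sources used here. Of 43346 identifiers 98% had a GENCODE M21 symbol, and coordinates are from that annotation (GRCm38, the same assembly as mm10). Sample numbers in the labels tied each column to its library, and 0 columns were unused.

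Counts were filtered (filterByExpr: minimum count 10, total 15), scaled with TMM factors and tested with edgeR 4.0.16 in R 4.3.3 (glmQLFit, glmQLFTest, 1 treatment term). The p-values were adjusted by the Benjamini-Hochberg method over the 14000 genes tested, and those under 0.05 were called. SEs and 95% intervals came from the fitted weights and posterior quasi-dispersion, and the procedure was tested on simulated data. CPM are counts scaled to a common library size with the same factors (edgeR cpm). No molecular identifiers are described, so the floor of 3 counts covers counting error only. No pair of libraries agreed within sampling noise (chi-square per degree of freedom 11 to 19.2 within a group and 78 to 123 between groups).

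The 10 genes and the lists were chosen with earlier results of these data known. Named genes are the 10 members, up to 3 rises and 3 falls with the largest change in each of the 7 lists, and the 3 genes nearest in profile to Ccn1 and Ccn2 with a mean count of at least 50; other genes named were chosen after their values were seen. The values of 1 gene that this rule selects are left out here. Alternatives were RLE or upper-quartile factors, total counts as library sizes, no filter, 1 CPM in 3 libraries, a replicate block, leaving out each library, DESeq2 1.42.0, a threshold of 0.01, and an offset for GC content and length (mgcv 1.9.3), alone and with the block.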

Additional observations from a re-analysis of the deposited data

How the results depend on the processing

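Ccn1, Ccn2, Ankrd1, Amotl2 and Ajuba kept their direction and their call in all 15 alternatives run for each, with log2 fold changes of 0.30 to 0.45, 1.12 to 1.24, 1.21 to 1.36, 0.35 to 0.51 and -1.36 to -1.03. All 16 alternatives gave 4 or 5 genes of the 10 higher, and 1 (scaling by total count only) to 4 lower; leaving out a library gave 4 to 5 higher and 2 to 3 lower. Over all genes, 4305 to 6104 passed. Scaling by total count only moved Yap1 to -0.14, Tead1 to -0.19 and Lats1 to 0.0074, the receptor list to 2 genes lower, and the medians of the kinase list to 0.14, the target list to 0.034 and the ferroptosis-linked list to 0.011; over all genes the median then went from -0.0014 to 0.0646, and genes higher made up 57.1% of those passing, against 50.2% with TMM and 44.0% with upper-quartile factors. Without the filter on low counts Yap1 was at -0.18 and did not pass. Upper-quartile factors gave a median of -0.051 in the TEAD and VGLL list. An adjusted p-value under 0.01 left 2 receptor and 1 ferroptosis-linked gene lower. The offset for GC content and length gave Wwtr1 -0.21 (passing) and medians of -0.052 in the kinase, -0.16 in the angiomotin and Ajuba and 0.05 in the target list; with the replicate block as well these were -0.20, -0.053, -0.16 and 0.053. Leaving out a library moved Yap1 between -0.22 and -0.17, Lats2 between 0.23 and 0.40, and the medians of the TEAD and VGLL list between -0.054 and 0.11, the target list between -0.056 and 0.019 and the ferroptosis-linked list between -0.26 and 0.17; the kinase list had 2 to 4, the receptor list 2 to 4 and the ferroptosis-linked list 1 to 2 genes lower. Of 44 other genes (those that passed in the lists and those nearest in profile to Ccn1 or Ccn2) 35 kept their call in every alternative and 0 reversed. The causes of these changes were not tested.

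Both groups carry replicate numbers 1 to 3 in their titles. For libraries with the same number, deviations from the group means correlated across genes at 0.040, 0.004 and -0.006 (mean 0.0128). The mean for different numbers was -0.0063. DMSO replicates 1 and 2 correlated best with the erastin library of their own number, and DMSO replicate 3 with erastin replicate 2 (0.035). All these correlations were weak, so the numbers were not taken as pairs. With the replicate block 5882 genes passed, 5 of the 10 were higher and 2 lower, and among the 10 only Yap1 changed its call (log2 fold change -0.20, edgeR adjusted p = 0.0542).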
